A study of Mus musculus with 20 samples.

Results

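The collagen gene family was taken as every gene row whose symbol is Col, a number, the letter a and a number, which gave 44 of the 23457 genes counted in the files. Polyadenylated RNA was sequenced from whole ovaries of 20 female mice, 1 library per mouse, all labelled with the strain Ames dwarf. There were 5 mice in each of 4 groups: dwarf mice (df/df) aged 22 months, dwarf mice aged 6 months, normal mice (N/df) aged 22 months and normal mice aged 6 months. Dwarf mice develop without the pituitary cells that make growth hormone, prolactin and thyrotropin, and the normal mice are heterozygous, so that they carry the df allele as well. The labels name no treatment. The design asks how age and the dwarf genotype bear on the ovary, and the comparisons are 22 against 6 months within each genotype, dwarf against normal at each age, and the difference between the age responses.

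Collagens are secreted or membrane-bound trimers whose chains hold long runs of the repeat Gly-X-Y, where X and Y are often proline and hydroxyproline. Fibrillar collagens form the load-bearing fibres of the ovarian stroma and follicle wall, and type IV chains form the sheet of the basement membrane that surrounds follicles, vessels and epithelia. Type VI chains form beaded microfilaments beside cells, and the remaining collagens sit on fibril surfaces, form short networks or span the cell membrane. By these roles the 44 genes fell into 11 fibrillar, 6 basement membrane, 6 beaded and 21 other genes. The other class held 9 fibril-associated collagens with interrupted triple helices (FACIT), 3 short-chain network collagens, 2 multiplexins, 4 transmembrane collagens, 1 anchoring fibril collagen and 2 that were left without a class.

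Levels are each gene's reads as a share of all gene counts of its library, scaled to 1000000 (CPM), given as mean ± SD over the 5 libraries of a group. Where genes are set against each other, CPM are divided by the exon length in kilobases (CPM per kb). Gene counts per library ranged from 5399377 to 13448164 in dwarf ovaries at 22 months, from 14224520 to 36068284 in dwarf ovaries at 6 months, from 5186090 to 20266823 in normal ovaries at 22 months and from 1365640 to 22429386 in normal ovaries at 6 months. In this bulk RNA, fewer cells of a type and less RNA per cell cannot be told apart. Oocyte, granulosa and luteal marker genes were detected in every group, as an ovary label requires, and none of the marker genes of the 12 cell types listed was at 0 in every library of a group. The summed oviduct and epithelial markers ranged from 1973 to 3635 CPM in dwarf ovaries at 22 months, from 43.6 to 1486 CPM in dwarf ovaries at 6 months, from 2016 to 3893 CPM in normal ovaries at 22 months and from 44.2 to 6284 CPM in normal ovaries at 6 months. Normal 6-month replicate 2 (the highest for the sum of these markers), normal 6-month replicate 3 (the shallowest library) and normal 22-month replicate 3 (the highest for B and plasma cell markers) stood apart from their groups. Counts of calls are also given without these 3 libraries. The closest libraries of any group were dwarf 22-month replicates 1 and 4 (chi-square per degree of freedom 2.42, with the next pair at 11.6). Sampling noise alone would give a smaller value, but this measure cannot tell 2 mice from 2 preparations of 1 mouse. They count as 2 samples because the series text describes separate mice, and counts of calls with the 2 summed are given where they differ most.

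The 6 type IV genes lie in 3 head-to-head pairs, and the results below turn on them. On mm10, Col4a1 (chr8:11198423-11312826, minus strand) and Col4a2 (chr8:11312829-11449287, plus strand) begin 3 bases apart, Col4a4 (chr1:82450723-82586849, minus strand) and Col4a3 (chr1:82586921-82722059, plus strand) begin 72 bases apart, and Col4a6 (chrX:141165403-141474076, minus strand) and Col4a5 (chrX:141475419-141689235, plus strand) begin 1343 bases apart. In 2 of these pairs both genes fell with age in dwarf ovaries. In the last pair neither was called with age, and Col4a6 alone was called between dwarf and normal ovaries, so the start regions are shown here from RefSeq on GRCm38.p6, 250 bases before to 50 bases after each annotated start, 5′ to 3′ on the gene's own strand. Capitals mark the letters of 3 core promoter motifs searched on both strands: the TATA box (TATAAA), the GC box (GGGCGG) and the CCAAT box (CCAAT). The windows cover chr8:11312777-11313076 for Col4a1, chr8:11312555-11312854 for Col4a2, chr1:82586800-82587099 for Col4a4, chrX:141475169-141475468 for Col4a5 and chrX:141474027-141474326 for Col4a6.
Col4a1: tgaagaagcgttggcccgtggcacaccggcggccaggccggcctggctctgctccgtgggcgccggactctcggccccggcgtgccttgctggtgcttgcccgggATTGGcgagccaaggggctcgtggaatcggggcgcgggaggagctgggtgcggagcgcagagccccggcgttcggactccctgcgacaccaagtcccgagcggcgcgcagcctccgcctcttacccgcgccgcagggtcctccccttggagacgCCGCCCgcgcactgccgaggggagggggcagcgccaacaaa
Col4a2: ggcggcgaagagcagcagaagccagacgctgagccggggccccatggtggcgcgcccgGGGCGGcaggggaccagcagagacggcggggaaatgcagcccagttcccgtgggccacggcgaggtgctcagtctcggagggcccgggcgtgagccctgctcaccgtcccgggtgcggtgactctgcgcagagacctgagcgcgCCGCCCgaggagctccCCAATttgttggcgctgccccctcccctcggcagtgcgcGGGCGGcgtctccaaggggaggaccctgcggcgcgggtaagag
Col4a4: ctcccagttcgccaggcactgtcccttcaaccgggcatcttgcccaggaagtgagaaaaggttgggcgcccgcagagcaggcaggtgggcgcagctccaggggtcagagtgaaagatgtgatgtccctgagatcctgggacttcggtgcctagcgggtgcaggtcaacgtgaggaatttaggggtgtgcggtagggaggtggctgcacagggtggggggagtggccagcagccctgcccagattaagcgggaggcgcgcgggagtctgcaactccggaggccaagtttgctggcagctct
Col4a5: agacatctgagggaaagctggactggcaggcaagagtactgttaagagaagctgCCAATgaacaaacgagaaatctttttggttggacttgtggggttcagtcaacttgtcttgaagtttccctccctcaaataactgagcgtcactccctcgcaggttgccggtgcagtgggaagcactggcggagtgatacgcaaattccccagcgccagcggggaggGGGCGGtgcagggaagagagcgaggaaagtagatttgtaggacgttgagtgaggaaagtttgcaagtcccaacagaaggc
Col4a6: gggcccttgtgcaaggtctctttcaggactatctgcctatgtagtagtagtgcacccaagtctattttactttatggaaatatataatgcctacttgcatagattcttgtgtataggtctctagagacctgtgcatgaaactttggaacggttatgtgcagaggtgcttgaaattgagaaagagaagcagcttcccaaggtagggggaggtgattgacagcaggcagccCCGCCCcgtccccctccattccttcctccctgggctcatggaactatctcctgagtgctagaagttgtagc
The Col4a1 and Col4a2 windows share 78 bases, so that the capitals at the end of the one recur, on the opposite strand, at the end of the other, and the Col4a5 and Col4a6 windows share 0. None of these 5 windows holds TATAAA, against 5 of the 38 windows found for 35 of the 44 collagen genes and 13.6% of all 32851 mouse windows in the same table. GGGCGG stands once in the Col4a1, Col4a5 and Col4a6 windows and 3 times in the Col4a2 window, and 23 of the 38 collagen windows and 35.7% of all windows hold it. CCAAT stands once in the Col4a1, Col4a2 and Col4a5 windows, and 13 of the 38 collagen windows and 37.4% of all windows hold it. No printed match overlaps another. The Col4a4 window spans the annotated start of Col4a3 and holds none of the 3 motifs. A match here is a string of letters, not a shown binding site.

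The classes rest on the structure of the collagens, so a difference in the repeats of their coding sequences follows from how they are defined. The values here are a description. In GENCODE transcripts the longest uninterrupted run of codon triplets that begin with a glycine codon (GGN) was 337 to 344 triplets in the fibrillar genes other than Col24a1 (216) and Col27a1 (217). In the 6 type IV genes it was 39 to 66 triplets, broken into 23 to 27 runs of at least 3 triplets. The 6 beaded genes held 107 to 110 triplets in all, in coding sequences of 1025 to 2677 codons. The FACIT gene Col9a2 held 195 triplets in 688 codons.

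Per length, the ovary's collagen messenger RNA was led by the chains of 4 collagens. Averaged over the 20 libraries, Col6a1 stood first at 161 CPM per kb, followed by Col1a2 at 154, Col1a1 at 143, Col6a2 at 106, Col4a1 at 106, Col3a1 at 100.1 and Col4a2 at 85.7 CPM per kb. Col18a1, which encodes the basement membrane collagen that is the source of endostatin, came next at 33.5 CPM per kb. At the low end, 4 genes had too few counts to be tested: Col2a1, the main cartilage collagen, with 116 counts over all 20 libraries, Col10a1, of hypertrophic cartilage, with 140 counts, Col19a1 with 39 counts and Col9a1 with 9 counts. The other 40 were tested, which is 10 of the fibrillar, 6 of the basement membrane, 6 of the beaded and 18 of the other genes.

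All collagen genes together made up 0.488% of gene counts in dwarf ovaries at 22 months, 0.718% in dwarf ovaries at 6 months, 0.529% in normal ovaries at 22 months and 0.732% in normal ovaries at 6 months. The summed basement membrane level was 921 ± 183 CPM in dwarf ovaries at 22 months and 1956 ± 391 CPM in dwarf ovaries at 6 months, where the lowest 6-month library (1539.8 CPM) lay above the highest 22-month library (1191 CPM). In normal ovaries this sum was 1219 ± 262 CPM at 22 months and 1813 ± 869 CPM at 6 months, and the groups overlapped. The fibrillar sum was 1702 ± 370.0 and 2740.0 ± 314 CPM in dwarf ovaries at 22 and 6 months, and 2106 ± 797 and 3120.0 ± 1005 CPM in normal ovaries at 22 and 6 months.
The beaded sums lay closer together between ages, at 1579 ± 389 and 1639 ± 210.3 CPM in dwarf ovaries at 22 and 6 months, and 1271 ± 399 and 1645 ± 306 CPM in normal ovaries at 22 and 6 months, with overlap in both genotypes. The other genes summed to 678 ± 53.1 and 844 ± 33.1 CPM in dwarf ovaries at 22 and 6 months, and to 698 ± 117 and 740.4 ± 152 CPM in normal ovaries at 22 and 6 months. In dwarf ovaries this sum, like that of the basement membrane class, did not overlap between ages (at most 727 CPM at 22 months and at least 813 CPM at 6 months). These sums are a description and carry no test. Without normal 6-month replicates 2 and 3, the normal 6-month basement membrane sum was 2424 ± 229 CPM (SD, n = 3). Its lowest library (2286 CPM) then lay above the highest normal 22-month library (1616 CPM).

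**Figure D1:**
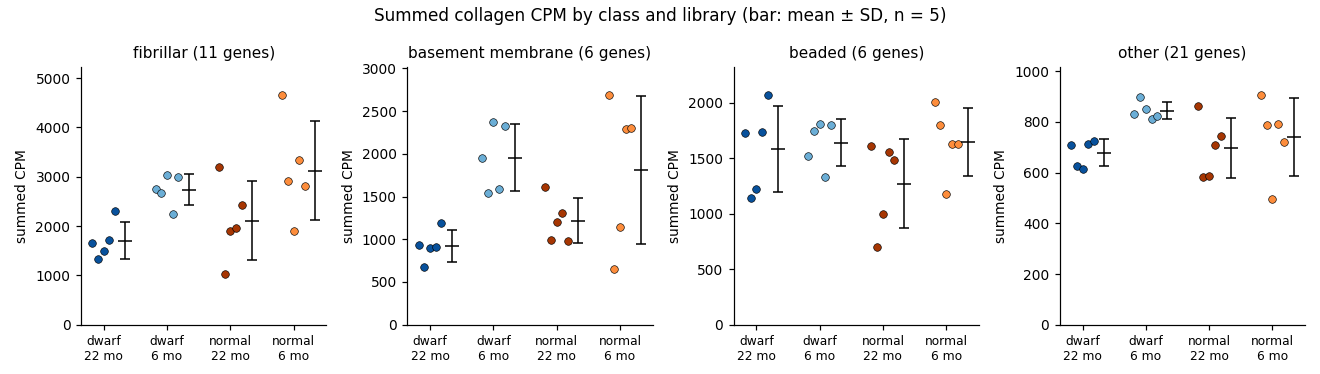
Summed CPM of the fibrillar, basement membrane, beaded and other collagen genes in each of the 20 libraries, by group on the horizontal axis, with the mean and SD of the 5 libraries beside the points. The basement membrane points of dwarf ovaries at 22 months (677 to 1191 CPM) lie below those of dwarf ovaries at 6 months (1539.8 to 2368 CPM), while the 22-month and 6-month points of the beaded class overlap in both genotypes. The dwarf points of the other class also lie apart between ages (615 to 727 CPM at 22 months and 813 to 898 CPM at 6 months).

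In dwarf ovaries, 8 of the 40 tested collagen genes fell between 6 and 22 months and 0 rose, which is 20.0% of them lower, beside 8.27% of all 16099 tested genes called lower and 2.92% called higher. They were the type IV genes Col4a1, Col4a2, Col4a3 and Col4a4, the fibrillar genes Col1a2 and Col5a1, the FACIT gene Col9a2 and Col26a1, which encodes a secreted collagen of the ovary and testis. By class, 4 of 6 basement membrane, 2 of 10 fibrillar, 0 of 6 beaded and 2 of 18 other genes fell. The median log2 fold change over the 40 was -0.47, against 0.00 over all genes, with 30 of 40 below 0. A call means an adjusted p under 0.05 (Benjamini-Hochberg, over all tested genes) in the quasi-likelihood test of edgeR. The error beside a log2 fold change (SE) was computed from the size of the change and the square root of F, and edgeR does not report it.

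Col4a1 and Col4a2 encode the chains of the common type IV trimer, which is found in nearly all basement membranes. Col4a1, in replicate order 1 to 5, stood at 359, 283, 359, 348 and 519 CPM in old dwarf ovaries (22 months), against 822, 695, 1078, 721 and 1078 CPM in young dwarf ovaries (6 months). Col4a2 stood at 286, 223, 286, 280.3 and 395 CPM at 22 months, against 652, 591, 882, 572 and 884 CPM at 6 months. For both genes every 22-month library was lower than every 6-month library. Col4a1 averaged 374 ± 87.1 CPM at 22 months and 879 ± 188 CPM at 6 months (SD, n = 5 each; log2 -1.32 ± 0.309, edgeR adjusted p = 0.0111). Col4a2 averaged 294 ± 62.3 CPM at 22 months and 716 ± 155 CPM at 6 months (log2 -1.37 ± 0.285, edgeR adjusted p = 0.00611). Both stayed called in each of the 10 fits that left out 1 dwarf library. A further fit took the mean log2 CPM of the oviduct and epithelial markers as a covariate. With it the fold changes were smaller, at log2 -0.65 for Col4a1 (edgeR adjusted p = 0.0497) and -0.76 for Col4a2 (edgeR adjusted p = 0.0219).

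Col4a3 and Col4a4 encode chains of a second type IV trimer, best known from the filtration barrier of the kidney. Col4a3 stood at 21.4, 14.6, 25.1, 23.1 and 18.7 CPM in dwarf ovaries at 22 months, against 62.6, 24.5, 51.3, 37.3 and 37.3 CPM at 6 months. Col4a4 stood at 59.7, 35.6, 64.4, 63.5 and 72.4 CPM at 22 months, against 193, 61.7, 158, 111 and 122 CPM at 6 months. In both genes dwarf 6-month replicate 2 was the lowest of the 6-month libraries and lay within the 22-month range, and the groups overlapped. Col4a3 averaged 20.6 ± 4.07 and 42.6 ± 14.7 CPM at 22 and 6 months (log2 -1.14 ± 0.286, edgeR adjusted p = 0.0163), and the call was lost when dwarf 22-month replicate 2 (edgeR adjusted p = 0.0525) or dwarf 6-month replicate 1 (0.0618) was left out. Col4a4 averaged 59.1 ± 14.0 and 129 ± 49.8 CPM (log2 -1.22 ± 0.344, edgeR adjusted p = 0.0281). Its call was lost when any of dwarf 22-month replicates 1, 2, 3 and 4 or dwarf 6-month replicates 1, 3 and 5 was left out (edgeR adjusted p 0.0537 to 0.0907). The remaining pair did not pass the test: Col4a5 was at 77.9 ± 11.5 and 104 ± 16.0 CPM at 22 and 6 months (log2 -0.50 ± 0.236) and Col4a6 at 95.6 ± 21.4 and 84.9 ± 13.1 CPM (log2 0.08 ± 0.185).

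**Figure D2:**
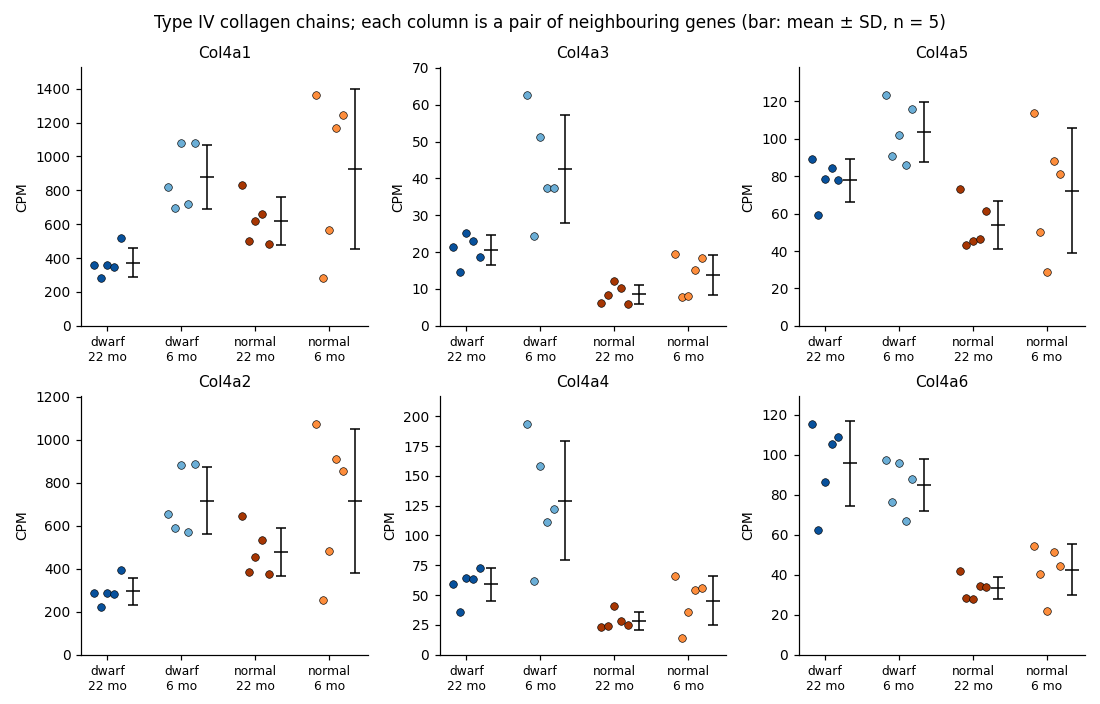
CPM of the 6 type IV collagen genes in each library, by group on the horizontal axis, with each head-to-head pair of genes in 1 column and the mean and SD of the 5 libraries beside the points. Col4a1 and Col4a2 have their lowest group means in dwarf ovaries at 22 months (libraries at most 519 and 395 CPM), whereas Col4a6 is higher in every dwarf library (at least 62.4 CPM) than in every normal library (at most 54.4 CPM).

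Among the fibrillar genes, Col1a2, the second chain of type I collagen and the fibrillar gene with the highest CPM per kb, stood at 581, 460.0, 549, 590.0 and 802 CPM in dwarf ovaries at 22 months, against 1066, 905, 1037, 827 and 1199 CPM at 6 months. Every 22-month library was below every 6-month library. The means were 596 ± 126 and 1007 ± 145 CPM (log2 -0.84 ± 0.204, edgeR adjusted p = 0.0137), and the call was lost without dwarf 6-month replicate 5 (edgeR adjusted p = 0.0609). Col5a1, a type V chain that nucleates type I fibrils, also fell (log2 -0.81 ± 0.237, edgeR adjusted p = 0.0337), with 150.5 ± 33.7 and 249 ± 30.1 CPM at 22 and 6 months and no overlap. That call was lost in 8 of the 10 fits that left out 1 dwarf library, the exceptions being dwarf 22-month replicate 5 and dwarf 6-month replicate 2 (edgeR adjusted p 0.0532 to 0.108 in the 8). Col1a1, the main type I chain, averaged 408 ± 137 and 706 ± 150.2 CPM (log2 -0.87 ± 0.312, edgeR adjusted p = 0.0775). Col3a1, of the thin reticular fibres, averaged 410.0 ± 74.1 and 515 ± 73.3 CPM (log2 -0.41 ± 0.274, edgeR adjusted p = 0.333). Neither passed.

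The widest fall with age in dwarf ovaries was that of Col9a2, a chain of type IX collagen, which in cartilage decorates the surface of type II fibrils. It stood at 14.0, 40.9, 15.4, 15.4 and 24.1 CPM at 22 months, against 165, 128, 119, 159 and 163 CPM at 6 months. The highest old library was far below the lowest young one. The means were 22.0 ± 11.3 and 147 ± 21.6 CPM (log2 -2.82 ± 0.416, edgeR adjusted p = 0.000795), and with 1 dwarf library left out the adjusted p from edgeR stayed between 0.00112 and 0.00474. Of its partner chains, Col9a1 had 9 counts in the whole series and Col9a3 averaged 1.51 and 2.28 CPM in dwarf ovaries at 22 and 6 months. Col9a3 shares 229 exon bases with Tcfl5, and as the strand setting of the counting is not given, its level is uncertain. Col26a1 stood at 14.3, 15.1, 19.8, 14.4 and 14.1 CPM at 22 months, against 30.4, 30.5, 30.0, 28.1 and 38.0 CPM at 6 months, again with no overlap (log2 -1.10 ± 0.253, edgeR adjusted p = 0.0105).

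The beaded class had no call among its 6 genes, where 8.27% of all tested genes were called lower, so this is not shown to be a contrast. Col6a1, its most abundant member, stood at 754, 498, 475, 755 and 921 CPM in dwarf ovaries at 22 months, against 597, 724, 677, 499 and 727 CPM at 6 months, and the ranges lay over each other (log2 -0.00 ± 0.219, edgeR adjusted p = 0.994). Col6a4, a chain close to the alpha3 chain of type VI, averaged 165 ± 55.4 and 274 ± 33.9 CPM (log2 -0.82 ± 0.267, edgeR adjusted p = 0.0535). This fall was about as large as those of the called genes Col1a2 and Col5a1. Without the 3 libraries that stood apart Col6a4 was called (log2 -0.78, edgeR adjusted p = 0.00959). Col18a1, the most abundant of the other genes, stood at 199, 153, 137, 195 and 223 CPM at 22 months, against 217, 243, 276, 228 and 213 CPM at 6 months, with overlap (log2 -0.46 ± 0.170, edgeR adjusted p = 0.0850). The 18 other genes ranged from log2 -2.82 to 0.58.

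Cell type markers moved with age in the same libraries. Of the 11 oocyte markers 9 fell in dwarf ovaries, with sums of 63.7 to 104 CPM at 22 months and 437 to 649 CPM at 6 months, and 1 of 10 granulosa markers fell, with sums of 1413 to 2827 and 3006 to 4824 CPM at 22 and 6 months. Of the 9 adipocyte markers 7 rose, with sums of 215 to 715 and 43.4 to 171 CPM. Stromal fibroblast markers, of the cells that make most fibrillar collagen, had 2 higher and 1 lower of 9 (sums of 2281 to 3152 and 1585 to 2677 CPM). Of the 7 surface epithelium markers 1 rose (Upk1b; sums of 446 to 830 and 58.9 to 389 CPM, with no overlap), and none of the 9 oviduct and epithelial markers passed, although their sums, given above, did not overlap between ages. None of the 12 endothelial and 10 smooth muscle markers passed the test. The part of these cells in the collagen results was not tested. With the oviduct and epithelial marker level as a covariate, 4 collagen genes were called (Col4a1, Col4a2, Col9a2 and Col26a1), against 4.74% of all genes. This marker level was itself higher at 22 months, so the covariate fit cannot tell it apart from age. Without the 3 libraries that stood apart, all from normal ovaries, the shared estimate of spread changed and 14 of 41 collagen genes were called in this comparison (13 lower and 1 higher), against 28.7% of all genes.

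In normal ovaries, 4 of the 40 collagen genes fell between 6 and 22 months and 0 rose, which is 10.0% of them lower, beside 4.14% of all tested genes called lower and 2.6% called higher. They were Col11a1, Col9a2, Col6a4 and Col26a1, and for each of them the groups overlapped. The median log2 fold change over the 40 was -0.34, against -0.02 over all genes. No type IV gene was called, although all 6 had values below 0 (log2 -0.72 to -0.38). With the oviduct and epithelial covariate the 6 ranged from log2 -0.19 for Col4a3 to 0.43 for Col4a1, with 4 of them above 0 and none called.

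Col11a1, a chain of type XI collagen that controls fibril width in cartilage, stood at 5.33, 5.84, 11.7, 3.28 and 9.05 CPM in normal 22-month replicates 1 to 5, against 66.3, 1.31, 10.3, 81.3 and 62.7 CPM in normal 6-month replicates 1 to 5. Among the 6-month libraries, replicate 3 lay within the 22-month range, replicate 2 below it and the other 3 far above it. The means were 7.05 ± 3.34 and 44.4 ± 36.1 CPM (log2 -2.63 ± 0.632, edgeR adjusted p = 0.0202), and omitting normal 6-month replicate 4 ended the call (edgeR adjusted p = 0.0502). With the oviduct and epithelial covariate the fold change was log2 -0.49 (edgeR adjusted p = 0.786), and without the 3 libraries that stood apart it was -3.48 (edgeR adjusted p = 1.52e-06). In dwarf ovaries Col11a1 averaged 43.3 ± 7.32 and 120.3 ± 22.7 CPM at 22 and 6 months (log2 -1.56 ± 0.600) with no overlap, and did not pass (edgeR adjusted p = 0.0975).

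Col9a2 stood at 9.77, 17.2, 28.9, 19.9 and 14.2 CPM in normal ovaries at 22 months, against 54.8, 13.8, 47.6, 88.3 and 75.5 CPM at 6 months. Normal 6-month replicate 2 was the only young library within the old range. The means were 18.0 ± 7.18 and 56.0 ± 28.6 CPM (log2 -1.66 ± 0.402, edgeR adjusted p = 0.0208). Omitting normal 6-month replicate 4 ended the call (edgeR adjusted p = 0.0523), as did the covariate (log2 -1.02, edgeR adjusted p = 0.370).

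Col6a4 stood at 94.6, 68.1, 82.7, 144 and 142 CPM in normal ovaries at 22 months, against 264, 90.1, 198, 240.0 and 271 CPM at 6 months, with only normal 6-month replicate 2 inside the 22-month range. The means were 106 ± 34.8 and 213 ± 74.2 CPM (log2 -1.04 ± 0.268, edgeR adjusted p = 0.0261). Leaving out normal 22-month replicate 1, 2 or 3 or normal 6-month replicate 3 ended the call (edgeR adjusted p 0.0505 to 0.0824), and with the covariate the change was log2 -0.45 (edgeR adjusted p = 0.455). Col26a1 stood at 12.7, 24.4, 10.9, 10.8 and 32.2 CPM at 22 months, against 38.3, 35.3, 29.3, 34.2 and 27.0 CPM at 6 months, where normal 22-month replicate 5 reached the 6-month range. It averaged 18.2 ± 9.64 and 32.8 ± 4.59 CPM (log2 -0.87 ± 0.253, edgeR adjusted p = 0.0440), and the call was lost without normal 22-month replicate 1, 3 or 4 or normal 6-month replicate 1, 3 or 4 (edgeR adjusted p 0.0665 to 0.147).

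The genes that lead each class by level did not pass in normal ovaries. Col1a2 stood at 826, 389.7, 568, 550.3 and 714 CPM at 22 months, against 1382, 832, 615, 1074 and 882 CPM at 6 months (log2 -0.67 ± 0.203, edgeR adjusted p = 0.0535). Col4a1 stood at 829, 499, 616, 661 and 485 CPM at 22 months, against 1362, 284, 565, 1167 and 1246 CPM at 6 months (log2 -0.59 ± 0.305, edgeR adjusted p = 0.248). Col4a2 stood at 643, 386, 454, 531 and 373 CPM, against 1072, 256, 481, 910.3 and 852 CPM (log2 -0.60 ± 0.281, edgeR adjusted p = 0.207). In both type IV genes normal 6-month replicate 2 was the lowest library of the group and the other 6-month libraries spread widely.
Col6a1 stood at 751, 297, 459, 709 and 616 CPM at 22 months, against 835, 743, 468, 625 and 648 CPM at 6 months (log2 -0.26 ± 0.219, edgeR adjusted p = 0.503). Col18a1 stood at 243, 119.9, 139.8, 154 and 158 CPM, against 242, 167, 142, 219.7 and 212 CPM (log2 -0.30 ± 0.170, edgeR adjusted p = 0.306). Both overlapped between ages.

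The count of calls in normal ovaries depended on single libraries. It came to 14 when normal 6-month replicate 2 was omitted (26.9% of all tested genes were then called), to 2 when normal 22-month replicate 3 was (2.97%), and to 1 when normal 6-month replicate 4 was (3.26%). With all libraries 6.75% were called. With only the normal groups fitted, so that the dwarf libraries did not enter the estimate of spread, 0 of all 15304 tested genes were called, collagen genes included. Without the 3 libraries that stood apart, 17 of 41 collagen genes were called, 15 lower and 2 higher (Col8a2 and Col23a1), against 29.6% of all genes. Those 15 included Col4a1, Col4a2, Col4a3, Col4a4 and Col4a5. With the oviduct and epithelial covariate 0 were called in edgeR, against 0.0497% of all genes. In that fit 8 of the 40 had an unadjusted edgeR p under 0.05, beside 2305 of all 16099 tested genes. Of these 8, Col6a5, Col6a6, Col8a1, Col22a1 and Col12a1 were above 0, and Col26a1, Col6a3 and Col16a1 were below 0. Of the oocyte markers 10 of 11 fell (sums of 7.99 to 52.8 and 5.90 to 545 CPM at 22 and 6 months), 1 of 10 granulosa markers fell (628 to 2274 and 283 to 5970.4 CPM), 6 of 8 B and plasma cell markers rose (55.6 to 1258 and 6.55 to 50.8 CPM) and 3 of 7 macrophage markers rose (489 to 2113 and 223 to 478 CPM). In addition 1 of 9 oviduct and epithelial markers rose (Cldn4), 1 of 7 surface epithelium markers rose (Upk1b, with sums that overlapped between ages) and 1 of 9 stromal fibroblast markers fell (Fbln1; 1601 to 2075 and 1077 to 2664 CPM). The part of these cells in the collagen results was not tested. The covariate itself moved with age in normal ovaries, from 1.42 to 7.54 at 6 months to 5.95 to 8.13 at 22 months (mean log2 CPM). Its fit therefore cannot tell age and this marker level apart.

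**Figure D3:**
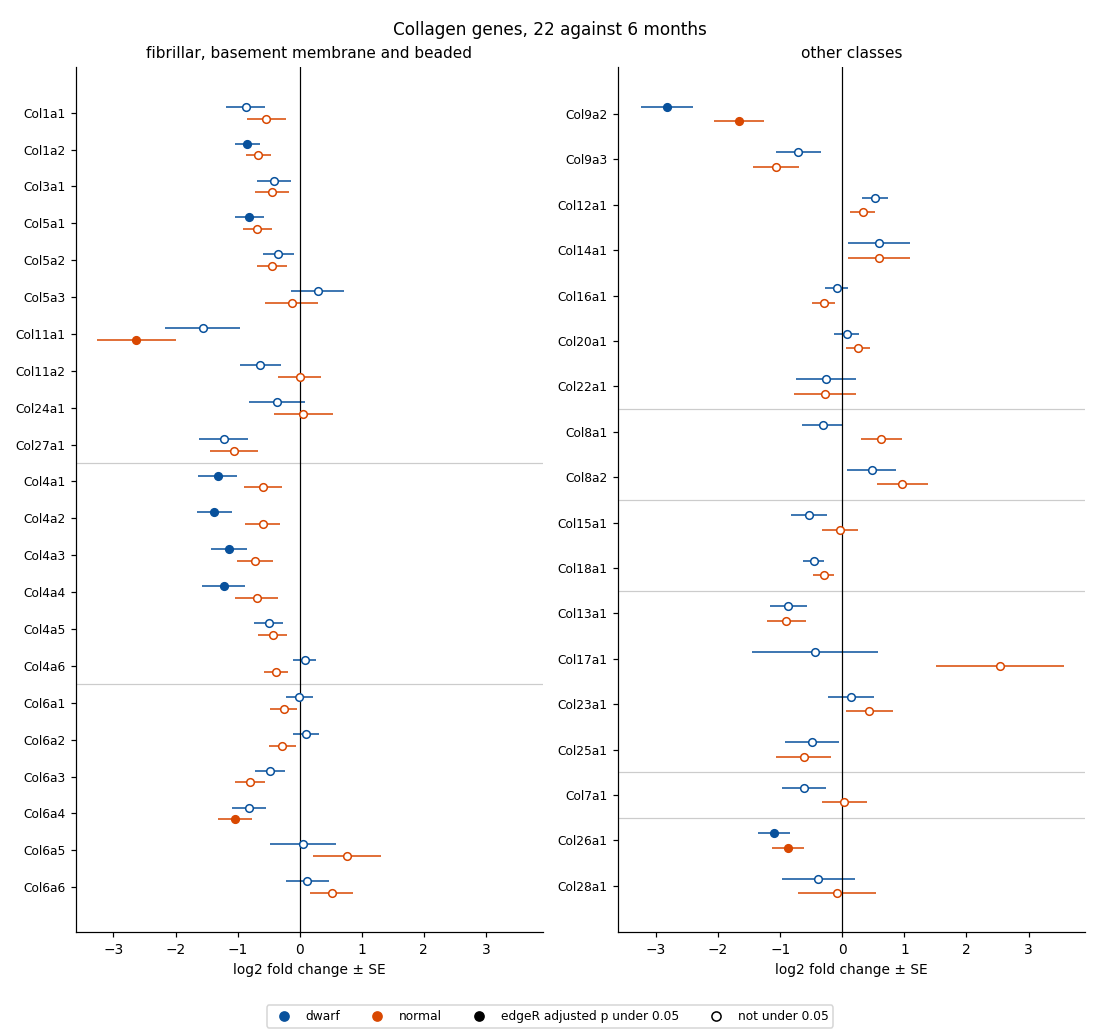
Log2 fold change ± SE of the 40 tested collagen genes for 22 against 6 months, in dwarf and in normal ovaries, with fibrillar, basement membrane and beaded genes on the left and the other genes on the right. Filled points passed an edgeR adjusted p under 0.05 (8 genes in dwarf and 4 in normal ovaries), all of them left of 0, and thin lines part the classes.

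The difference between the age responses was tested directly, dwarf minus normal, and 0 of the 40 collagen genes and 0% of all tested genes passed in edgeR. DESeq2 and limma voom also gave 0 collagen calls. An unadjusted p under 0.05 was reached by 1 collagen gene in edgeR, 2 in DESeq2 and 6 in limma voom. Among all 16099 tested genes it was reached by 1127, 1263 and 2706 in the same order. The gene in edgeR was Col9a2 (difference of log2 fold changes -1.17 ± 0.556, edgeR adjusted p = 0.712), followed by Col17a1 (-2.98 ± 1.44, edgeR adjusted p = 0.717) and Col8a1 (-0.94 ± 0.466, edgeR adjusted p = 0.734). The larger number of falls in dwarf than in normal ovaries is therefore not shown to be a difference between the genotypes. Without the 3 libraries that stood apart, 2 of 41 passed, Col11a1 (difference 1.95, edgeR adjusted p = 0.0231) and Col8a2 (-1.55, edgeR adjusted p = 0.0394), against 1.23% of all genes. With the oviduct and epithelial covariate no collagen gene passed. The smallest p there belonged to Col4a2 (difference -1.07, edgeR adjusted p = 0.139) and Col4a1 (-1.09, edgeR adjusted p = 0.166).

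Col17a1, a hemidesmosome collagen of epithelia, rested on 1 library. It stood at 2.00, 2.27, 0.892, 0.986 and 0.741 CPM in dwarf ovaries at 22 months, 1.56, 2.67, 1.48, 1.55 and 1.66 CPM in dwarf ovaries at 6 months, 2.76, 61.0, 1.41, 1.35 and 0.207 CPM in normal ovaries at 22 months and 2.82, 4.22, 0.00, 2.59 and 1.05 CPM in normal ovaries at 6 months. Normal 22-month replicate 2, with 710 of its reads, stood far above the others, and it also had the highest oviduct and epithelial marker score of its group (8.13 as a mean of log2 CPM, with the other 4 at 5.95 to 6.73). Normal 6-month replicate 3, the shallowest library, had 0 reads, and the limit that this count allows is a level of up to 2.20 CPM, which covers counting error only.

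Between genotypes at 22 months, 3 of the 40 collagen genes were higher in dwarf than in normal ovaries (Col4a6, Col4a3 and Col11a1) and 2 were lower (Col15a1 and Col8a1), beside 1.96% of all tested genes called higher and 1.86% called lower. At 6 months 4 were higher (Col4a3, Col4a6, Col4a4 and Col6a5) and 1 was lower (Col5a3), beside 2.27% and 2.3%. By class, 2 of 6 basement membrane genes were higher at 22 months and 3 of 6 at 6 months. The median log2 fold change over the 40 was 0.04 at 22 months and 0.07 at 6 months, against -0.04 over all genes at both ages.

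Col4a6 encodes a chain of the remaining type IV trimer, found in the basement membranes of smooth muscle and of some epithelia. It stood at 115, 62.4, 86.4, 105 and 109 CPM in dwarf ovaries at 22 months, against 41.7, 28.5, 27.8, 34.3 and 33.6 CPM in normal ovaries at 22 months. At 6 months it stood at 97.6, 76.5, 95.9, 66.8 and 88.0 CPM in dwarf ovaries, against 54.4, 40.5, 22.0, 51.2 and 44.4 CPM in normal ovaries. Every dwarf library was above every normal library of either age. The means at 22 months were 95.6 ± 21.4 CPM in dwarf and 33.2 ± 5.58 CPM in normal ovaries (log2 1.44 ± 0.189, edgeR adjusted p = 0.000447), and at 6 months 84.9 ± 13.1 CPM in dwarf and 42.5 ± 12.7 CPM in normal ovaries (log2 0.97 ± 0.188, edgeR adjusted p = 0.00514). Both calls were kept in all 20 alternatives run for each of them. Col4a5, its partner across the start region, averaged 77.9 ± 11.5 CPM in dwarf and 53.9 ± 12.9 CPM in normal ovaries at 22 months (log2 0.44 ± 0.236, edgeR adjusted p = 0.346) and 104 ± 16.0 and 72.3 ± 33.3 CPM at 6 months (log2 0.51 ± 0.236, edgeR adjusted p = 0.259), and was not called.

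Col4a3 stood at 6.32, 8.33, 12.0, 10.2 and 5.80 CPM in normal ovaries at 22 months and 19.4, 7.94, 8.05, 15.0 and 18.3 CPM at 6 months, and at each age every dwarf library, given above, was higher. It was called at 22 months (log2 1.18 ± 0.290, edgeR adjusted p = 0.0283) and at 6 months (log2 1.60 ± 0.292, edgeR adjusted p = 0.00369). The 22-month call was lost without dwarf 22-month replicate 1, 3 or 4 or normal 22-month replicate 1 or 5 (edgeR adjusted p 0.0578 to 0.0654), and the 6-month call was kept in all 20 alternatives. Col4a4 stood at 23.5, 24.2, 40.6, 28.5 and 24.5 CPM in normal ovaries at 22 months and 66.0, 13.7, 35.9, 54.5 and 56.2 CPM at 6 months. At each age 1 or more libraries of the genotypes overlapped. It was called at 6 months (log2 1.49 ± 0.348, edgeR adjusted p = 0.0179) and not at 22 months (log2 0.97 ± 0.344, edgeR adjusted p = 0.127). The age responses of Col4a3, Col4a4 and Col4a6 did not pass the test of their difference between genotypes (edgeR adjusted p = 0.929, 0.922 and 0.798).

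The composition of type IV message can also be read within each library, where the library's total cancels. Genes Col4a3 to Col4a6 made up 26.4 ± 3.15% of type IV CPM per kb in dwarf ovaries at 22 months (22.2 to 29.4%), 17.2 ± 3.18% in dwarf ovaries at 6 months (14.5 to 22.6%), 9.84 ± 1.48% in normal ovaries at 22 months (8.58 to 12.2%) and 9.98 ± 3.73% in normal ovaries at 6 months (7.63 to 16.6%). At 22 months the dwarf and normal libraries did not overlap, and at 6 months only normal 6-month replicate 2 lay within the dwarf range. The ratio of Col4a6 to Col4a5 CPM was 1.22 ± 0.139 in dwarf ovaries at 22 months, 0.822 ± 0.0723 in dwarf ovaries at 6 months, 0.626 ± 0.0773 in normal ovaries at 22 months and 0.637 ± 0.144 in normal ovaries at 6 months, and every dwarf 22-month library (1.06 to 1.39) was above every library of the other 3 groups (0.479 to 0.939).
The ratio of Col4a1 to Col4a2 CPM was nearly constant, at 1.27 ± 0.0276, 1.23 ± 0.0349, 1.30 ± 0.0406 and 1.26 ± 0.133 in dwarf 22-month, dwarf 6-month, normal 22-month and normal 6-month ovaries. The ratio of Col4a3 to Col4a4 CPM was 0.356 ± 0.0586, 0.337 ± 0.0348, 0.301 ± 0.0508 and 0.340 ± 0.139 in the same groups. These ratios are descriptions and carry no test, and a ratio shows unequal change, not which gene moved. The dwarf ovaries also had lower luteal marker levels, with 4 of 9 luteal markers lower at 22 months (sums of 1622 to 4222 CPM in dwarf and 2600.0 to 12934 CPM in normal ovaries) and 5 of 9 lower at 6 months (1686 to 3037 and 244 to 14500.1 CPM). Of the 9 adipocyte markers 1 was lower at 22 months (sums of 215 to 715 CPM in dwarf and 292 to 1403 CPM in normal ovaries) and 2 were lower at 6 months (43.4 to 171 CPM in dwarf and 243 to 937 CPM in normal ovaries, with no overlap). Single calls at 22 months were Amh among the granulosa markers (higher in dwarf), Dcn among the stromal fibroblast markers (higher) and Lyz2 among the macrophage markers (lower), and at 6 months Lum among the stromal fibroblast markers (lower). No smooth muscle, oviduct and epithelial, ciliated or surface epithelium marker was called between genotypes. In that order their median log2 fold changes were -0.53, -0.86, -0.12 and 0.12 at 22 months. At 6 months they were -0.95, -0.84, -0.55 and -0.08. The part of these cells in the genotype values was not tested.

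Outside type IV, 5 members were called between genotypes at 1 of the ages. Col11a1 at 22 months stood at 49.3, 32.3, 48.3, 47.4 and 39.3 CPM in dwarf ovaries, against the 3.28 to 11.7 CPM in normal ovaries given above, with no overlap (log2 2.49 ± 0.629, edgeR adjusted p = 0.0324). That call was lost without dwarf 22-month replicate 1, 3, 4 or 5 or normal 22-month replicate 1, 2 or 4 (edgeR adjusted p 0.0578 to 0.0724). At 6 months it stood at 139.6, 83.0, 132, 115 and 132 CPM in dwarf ovaries, all above the normal libraries, and did not pass (log2 1.43 ± 0.598, edgeR adjusted p = 0.200), although it did with the oviduct and epithelial covariate (log2 2.18, edgeR adjusted p = 0.0113). Col9a2, lower with age in both genotypes, stood in every dwarf 6-month library above every normal 6-month library and missed the threshold (log2 1.36 ± 0.396, edgeR adjusted p = 0.0560), but passed it with the covariate (log2 1.53, edgeR adjusted p = 0.0185).

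Col6a5, another type VI chain close to alpha3, stood at 89.2, 68.0, 129.8, 62.2 and 143 CPM in dwarf ovaries at 6 months, against 30.0, 2.33, 11.7, 15.9 and 32.3 CPM in normal ovaries at 6 months. The lowest dwarf library was above the highest normal one. The means were 98.4 ± 36.3 and 18.5 ± 12.6 CPM (log2 2.39 ± 0.567, edgeR adjusted p = 0.0210), and the call was lost without dwarf 6-month replicate 5 (edgeR adjusted p = 0.0575). At 22 months it stood at 139, 27.1, 152, 141 and 85.8 CPM in dwarf and 55.9, 17.1, 15.2, 38.8 and 35.6 CPM in normal ovaries, where dwarf 22-month replicate 2 fell within the normal range (log2 1.67 ± 0.547, edgeR adjusted p = 0.0968). The other 5 beaded genes ranged from log2 -0.52 to 0.33 at 6 months and were not called. Col6a4, Col6a5 and Col6a6 lie in tandem on chromosome 9, with gaps of 29675 and 27985 bases.

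Col15a1, a multiplexin of basement membrane zones around vessels and muscle, stood at 49.5, 52.5, 50.8, 45.8 and 92.6 CPM in dwarf ovaries at 22 months, against 202, 51.6, 119, 159 and 154 CPM in normal ovaries at 22 months. Normal 22-month replicate 2 lay within the dwarf range, and the other 4 normal libraries lay above it. The means were 58.2 ± 19.4 and 137 ± 56.0 CPM (log2 -1.31 ± 0.296, edgeR adjusted p = 0.0175), and the call was lost without dwarf 22-month replicate 1 or 4 or normal 22-month replicate 1 (edgeR adjusted p 0.0535 to 0.0637). At 6 months it stood at 59.3, 96.1, 97.7, 67.3 and 80.8 CPM in dwarf and 209, 151, 65.2, 137 and 132 CPM in normal ovaries and was not called (log2 -0.81 ± 0.293, edgeR adjusted p = 0.126).

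Col8a1, a short-chain network collagen made by endothelium and other cells, was scarce, at 3.06, 3.85, 4.16, 1.70 and 2.78 CPM in dwarf ovaries at 22 months (15 to 56 reads), against 12.0, 4.04, 6.31, 7.13 and 5.04 CPM in normal ovaries at 22 months (37 to 244 reads). The lowest normal library lay within the dwarf range. Its lower level in dwarf ovaries at 22 months (log2 -1.23 ± 0.331, edgeR adjusted p = 0.0426) was lost in 8 of the 10 fits that left out 1 library, the exceptions being normal 22-month replicates 2 and 5 (edgeR adjusted p 0.0554 to 0.140 in the 8). At 6 months it stood at 3.80, 2.85, 4.71, 3.16 and 3.77 CPM in dwarf and 5.14, 2.11, 5.13, 5.31 and 4.62 CPM in normal ovaries.
Col5a3, a minor type V chain, stood at 6.14, 13.6, 8.35, 5.83 and 5.18 CPM in dwarf ovaries at 6 months, against 22.1, 55.8, 10.3, 10.5 and 9.05 CPM in normal ovaries at 6 months, where normal 6-month replicate 2 was far above the rest (log2 -1.52 ± 0.430, edgeR adjusted p = 0.0488). Without that library the change was log2 -0.75 (edgeR adjusted p = 0.160), and the call was also lost without dwarf 6-month replicate 1, 3, 4 or 5 or normal 6-month replicate 1 (edgeR adjusted p 0.0676 to 0.143). At 22 months it stood at 10.1, 11.1, 8.85, 8.60 and 11.3 CPM in dwarf and 30.5, 9.19, 18.0, 25.3 and 18.0 CPM in normal ovaries and was not called (log2 -1.10 ± 0.427).

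**Figure D4:**
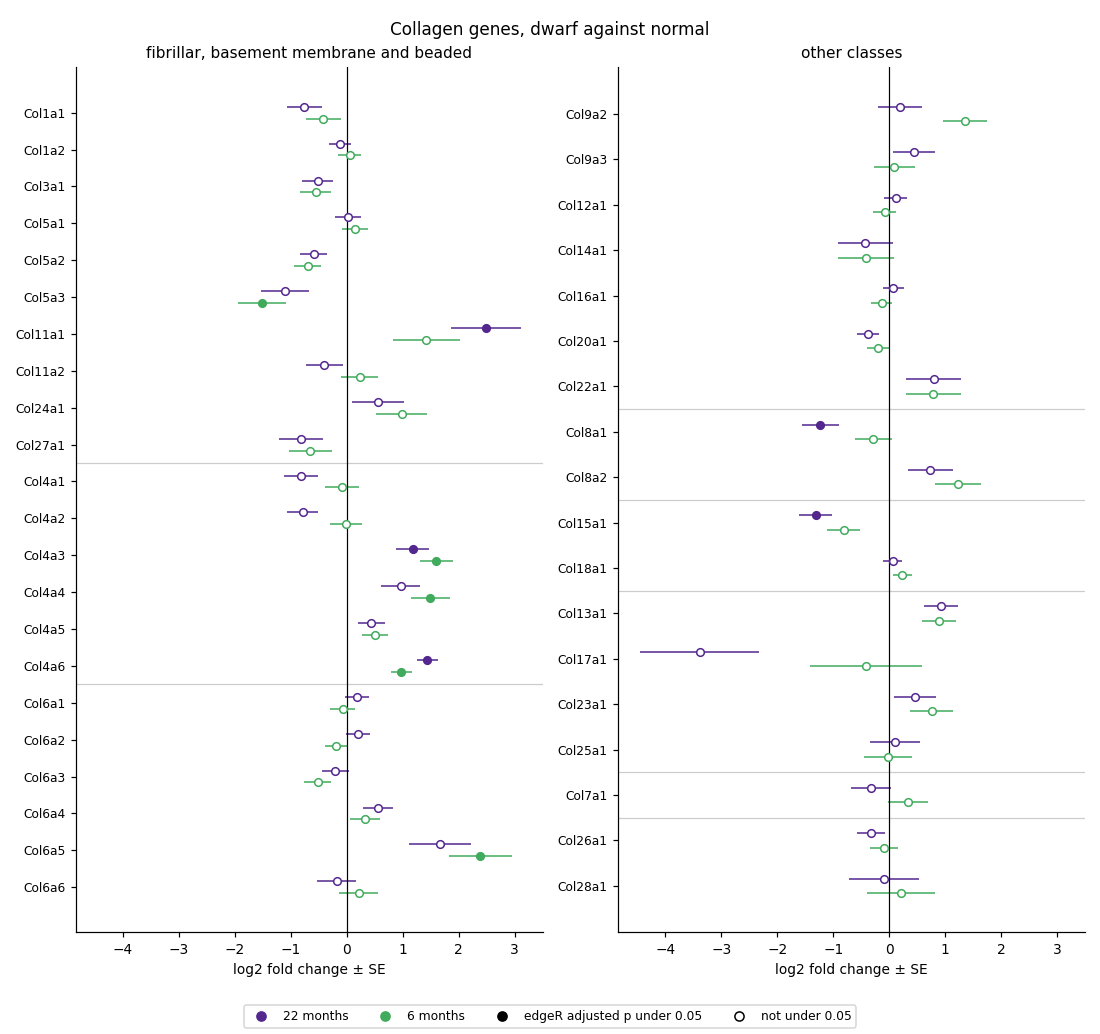
Log2 fold change ± SE of the 40 tested collagen genes for dwarf against normal ovaries, at 22 months and at 6 months, with fibrillar, basement membrane and beaded genes on the left and the other genes on the right. Filled points passed an edgeR adjusted p under 0.05 (5 genes at each age), and among the type IV genes Col4a3 and Col4a6 are filled at both ages.

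With all libraries and no covariate, the most abundant chains did not pass the edgeR test between genotypes. In alternative fits Col4a1 and Col4a2 were called lower in dwarf ovaries at 22 months with limma voom, with only the groups compared, with the covariate and without the 3 libraries that stood apart, and limma voom also called Col1a1 lower at 22 months and Col3a1 lower at 6 months. At 22 months Col4a1 averaged 374 ± 87.1 CPM in dwarf and 618 ± 139.9 CPM in normal ovaries (log2 -0.81 ± 0.306, edgeR adjusted p = 0.151), and Col4a2 averaged 294 ± 62.3 and 477 ± 112 CPM (log2 -0.79 ± 0.282, edgeR adjusted p = 0.129). With the oviduct and epithelial covariate both were called lower in dwarf ovaries, Col4a1 at log2 -1.002 (edgeR adjusted p = 0.00179) and Col4a2 at log2 -0.96 (edgeR adjusted p = 0.00137). Col1a1 averaged 408 ± 137 and 652 ± 332 CPM at 22 months (log2 -0.75 ± 0.312) and Col1a2 596 ± 126 and 609 ± 167 CPM (log2 -0.12 ± 0.203). The ratio of Col1a1 to Col1a2 CPM per kb was 0.737 ± 0.0892 in dwarf ovaries at 22 months, 0.776 ± 0.173 in dwarf ovaries at 6 months, 1.11 ± 0.317 in normal ovaries at 22 months and 1.08 ± 0.313 in normal ovaries at 6 months, with overlap between genotypes. Without the 3 libraries that stood apart, 11 of 41 collagen genes were called at 22 months (4 higher and 7 lower), Col4a1 and Col4a2 among the lower, against 10.8% of all genes, and 10 of 41 at 6 months (8 higher and 2 lower), against 12.2%. Leaving out single 22-month libraries gave 1 call for dwarf replicate 1 or 4 (1.62 and 1.61% of all genes called) or normal replicate 1 (2.46%), 2 calls for dwarf replicate 3 (2.31%), and 3 calls for dwarf replicate 5 (1.97%) or normal replicate 4 (2.55%), against 3.81% of all genes with all libraries. With dwarf 22-month replicates 1 and 4 summed, 1 collagen gene was called at 22 months (1.67% of all genes). At 6 months the count was 3 when dwarf replicate 5 was left out (2.27% of all genes, against 4.57% with all libraries).

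**Figure D5:**
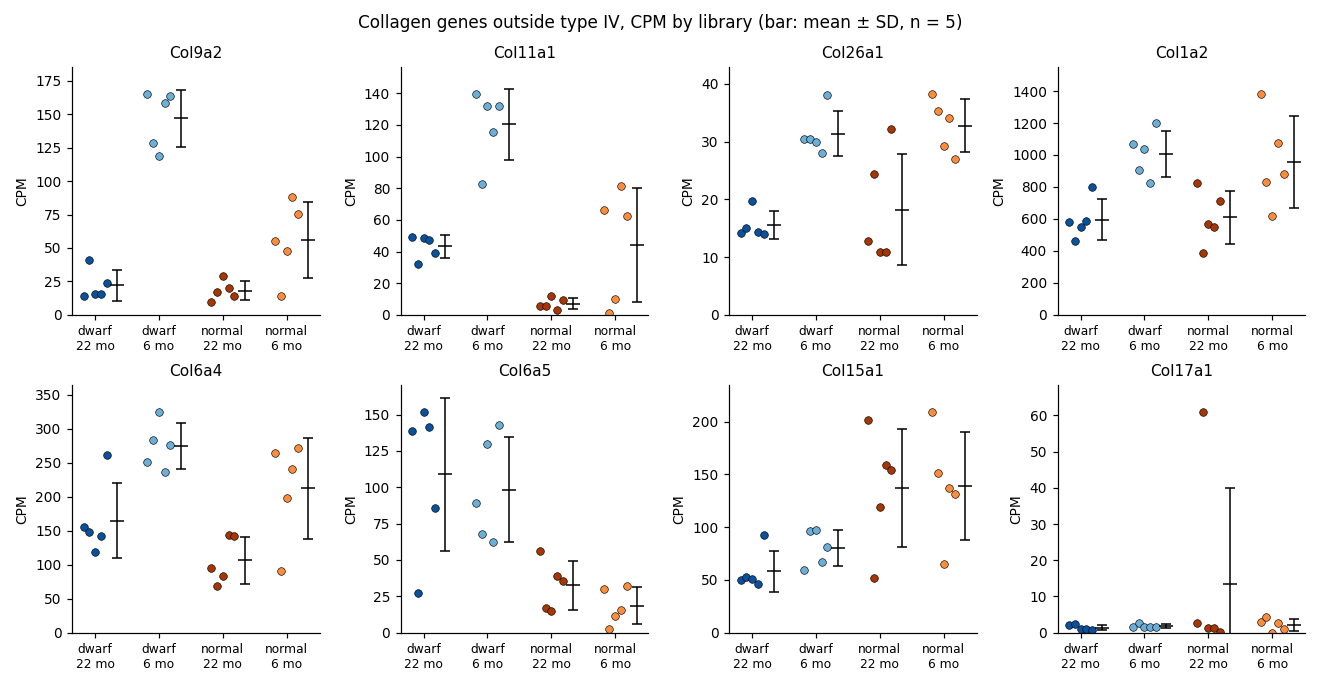
CPM of Col9a2, Col11a1, Col26a1, Col1a2, Col6a4, Col6a5, Col15a1 and Col17a1 in each library, by group on the horizontal axis, with the mean and SD of the 5 libraries beside the points. Col9a2 and Col26a1 are lower in every dwarf 22-month library than in every dwarf 6-month library, and the normal 22-month spread of Col17a1 comes from 1 library at 61.0 CPM.

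Some genes whose products modify, fold or process collagen chains also fell with age. From a list of 33 tested genes for hydroxylation, folding, export, propeptide removal and cross-linking, 7 fell and 0 rose between 6 and 22 months in dwarf ovaries (median log2 -0.35), beside 8.27% of all tested genes lower. In normal ovaries 4 fell and 1 rose (median log2 -0.40), beside 4.14% of all tested genes lower and 2.6% higher, while 0 passed between genotypes at either age. In dwarf ovaries 5 of the 10 prolyl and lysyl hydroxylases fell, and none of the 5 cross-linking enzymes passed. Adamts2, which removes the aminopropeptide of fibrillar procollagens, averaged 84.5 ± 8.08 and 252 ± 32.6 CPM in dwarf ovaries at 22 and 6 months (range 77.7 to 98.3 and 198 to 285 CPM; log2 -1.66 ± 0.223, edgeR adjusted p = 0.000454). Serpinh1, the collagen chaperone HSP47, averaged 284 ± 33.8 and 528 ± 43.6 CPM (range 224 to 303 and 496 to 588 CPM; log2 -0.98 ± 0.201, edgeR adjusted p = 0.00590). For both genes the ages did not overlap. The lysyl hydroxylases Plod1 (log2 -0.79 ± 0.129, edgeR adjusted p = 0.00148) and Plod3 (log2 -0.62 ± 0.123, edgeR adjusted p = 0.00522) fell as well, and these 4 calls were kept in every alternative run.

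In normal ovaries the same direction held for Plod1 (log2 -0.66 ± 0.129, edgeR adjusted p = 0.00977), Serpinh1 (log2 -0.84 ± 0.201, edgeR adjusted p = 0.0184) and Adamts2 (log2 -0.85 ± 0.219, edgeR adjusted p = 0.0260). The Serpinh1 call was lost without normal 22-month replicate 2 or 3 (edgeR adjusted p = 0.0501 and 0.0624). The Adamts2 call was lost without normal 22-month replicate 2 or 3 or normal 6-month replicate 4 (edgeR adjusted p 0.0525 to 0.0865). All 3 lost the call with the oviduct and epithelial covariate (log2 -0.40 for Plod1, -0.46 for Serpinh1 and -0.21 for Adamts2). They also lost it with only the normal groups fitted (edgeR adjusted p 0.214 to 0.244), where 0 of all 15304 tested genes were called.

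Of 9 tested collagen receptors 1 changed with age in normal ovaries, beside 6.75% of all tested genes. Another 1 of the 9 differed between genotypes at 22 months, beside 3.81% of all tested genes. With so few receptors, these counts are not shown to differ from those shares. Lair1, an inhibitory collagen receptor of immune cells, rose in normal ovaries, with 4.95 ± 5.11 and 0.779 ± 0.504 CPM at 22 and 6 months (log2 2.51 ± 0.600, edgeR adjusted p = 0.0185). Its highest library, normal 22-month replicate 3, also had the highest B and plasma cell markers, and without it the call was lost (log2 1.60, edgeR adjusted p = 0.0701). The Lair1 call was also lost with only the normal groups fitted (edgeR adjusted p = 0.214) and with the covariate (edgeR adjusted p = 0.183). Itga1, the collagen-binding integrin subunit that prefers type IV collagen, was lower in dwarf ovaries at 22 months, with 5.36 ± 1.29 CPM in dwarf and 13.5 ± 5.54 CPM in normal ovaries and no overlap (log2 -1.43 ± 0.329, edgeR adjusted p = 0.0196). This call was lost without dwarf 22-month replicate 1, 3, 4 or 5 or normal 22-month replicate 3 (edgeR adjusted p 0.0512 to 0.0560). The platelet collagen receptor gene Gp6 had 0 reads in every library of dwarf ovaries at either age and of normal ovaries at 6 months and was not tested.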

How the data were processed

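Ovary RNA from 20 female mice was analysed as 1 library per mouse. The authors deposited whole-number counts of reads per gene, with 23457 genes and 5 summary rows that held 9.84 to 17.6% of a file's counts and were left out. The submitters' processing notes name the build mm10 and the tools TopHat2 2.0.10, TopHat, Bowtie2, HTSeq, edgeR and DESeq. How strand and reads with several matches were treated is not given in the sources. The number of per-sample columns not used was 0. Coordinates and exon lengths came from the deposited mm10 annotation.

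Counts were fitted in R 4.3.3 with edgeR 4.0.16 (TMM, filterByExpr with minimum count 10 and minimum total 15, robust quasi-likelihood over 4 group means and all 20 libraries), which left 16099 genes, and p-values were adjusted over all of them by Benjamini-Hochberg. Alternatives were scaling by upper quartile or RLE, no filter, DESeq2 1.42.0, limma 3.58.1 voom with quality weights, only the groups compared, a replicate block, the oviduct and epithelial marker level as a covariate, 3 libraries left out, dwarf 22-month replicates 1 and 4 summed, and each library left out in turn. The covariate was the mean log2 CPM of the oviduct and epithelial markers, not their summed CPM. Tables and figures were made in Python 3.11.15 with pandas 2.3.3 and matplotlib 3.10.9. The edgeR test was also tested on simulated data.

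Values in every library are given for the most abundant member of each class, for at most 6 members called with the lowest p in each of the 4 pairwise comparisons and for the 3 with the smallest p for the difference of age responses, and up to 4 called partner genes are named per comparison. Other members are described by counts and ranges. The limit that a count of 0 allows is 3 counts. The members, classes and lists were chosen with earlier results of these data known. Replicates are separate mice per the series text.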

Additional observations from a re-analysis of the deposited data

Results flagged for a closer look

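The collagen genes with values in every library and the class sums were searched for extreme libraries. The gap between a group's most extreme library and its nearest neighbour was set against the group's range, in groups of 5 libraries. Of 84 combinations of a gene or class sum with a group, 8 were flagged. For independent values with a normal spread, chance flags about 1 in 20. The genes here share libraries and the class sums contain them, so the 8 cannot be judged by that rate. Dwarf 22-month replicate 5 was highest for Col6a4, at 261 CPM with the next library at 155 CPM, and for Col15a1, at 92.6 CPM with the next at 52.5 CPM. Col26a1 was highest in dwarf 22-month replicate 3, at 19.8 CPM with the next at 15.1 CPM, and in dwarf 6-month replicate 5, at 38.0 CPM with the next at 30.5 CPM. Normal 6-month replicate 2 was highest for Col5a3, at 55.8 CPM with the next at 22.1 CPM, and lowest for Col8a1, at 2.11 CPM with the next at 4.62 CPM. Col17a1 was highest in dwarf 6-month replicate 2, at 2.67 CPM with the next at 1.66 CPM, and in normal 22-month replicate 2, at 61.0 CPM with the next at 2.76 CPM.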

How the results depend on the processing

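Counts of called collagen genes moved by over 1.5 times under several settings, with the direction of each of the 22 calls kept in all 440 gene and setting values (349 kept the call and 91 lost it). The share of all tested genes called under each setting stands in brackets. For age in dwarf ovaries the count was 8 (11.2%), and it was 13 with DESeq2 (17.1%), 23 with limma voom (46.5%), 18 with only the groups compared (33.5%), 4 with the oviduct and epithelial covariate (4.74%), 14 without the 3 libraries that stood apart (28.7%) and 5 to 11 with 1 library left out (4.94 to 10.3%). For age in normal ovaries it was 4 (6.75%), and 7 (11%), 17 (23.6%), 0 (0%), 0 (0.0497%) and 17 (29.6%) under the same settings, 8 with the replicate block (6.94%) and 1 to 14 with 1 library left out (2.97 to 26.9%). For dwarf against normal at 22 months it was 5 (3.81%), and 13 with limma voom (14.1%), 8 with only the groups compared (5.53%), 9 with the covariate (6.06%), 11 without the 3 libraries (10.8%), 1 with dwarf 22-month replicates 1 and 4 summed (1.67%) and 1 to 5 with 1 library left out (1.61 to 3.93%). For dwarf against normal at 6 months it was 5 (4.57%), and 8 with DESeq2 (8.78%), 13 with limma voom (11.5%), 2 with only the groups compared (1.6%), 8 with the covariate (7.78%), 10 without the 3 libraries (12.2%) and 3 to 7 with 1 library left out (2.27 to 8.97%). For the difference of age responses it was 0, and 2 without the 3 libraries (1.23%). The cause of these moves was not tested, beyond the construction of the settings themselves (fewer libraries in a fit). Replicate numbers did not pair the mice: same-numbered libraries correlated at -0.22 to 0.72 in their deviations, and not every library correlated best with its own number. The replicate block gave 10, 8, 4, 4 and 0 calls for age in dwarf, age in normal, 22 months, 6 months and the difference. Of 40 class sum values under other library totals or without the 3 libraries that stood apart, 39 moved by less than 1 SD. Scaling by RLE or upper quartile turned no call's direction.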
